A study of Homo sapiens with 18 samples.

Results

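The 50 genes described here encode the machinery that copies DNA in S phase: origin licensing and helicase factors, polymerases, the sliding clamp and its loaders, and proteins that join fragments, supply nucleotides and rebuild chromatin. They were chosen as a list of gene symbols. All 50 of the 50 symbols were found among the 60252 gene IDs of the count tables, and 50 of 50 passed the filter on low counts, as did 21285 genes in all. The rule of choice uses gene symbols and no measured value, but the list was made with earlier results of these data known.

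RNA was measured in ZR-75-1 cells, an established estrogen receptor-positive breast cancer line. The 6 groups of 3 libraries were ADAR knockdown cells (ADAR KD) given 100 nM triptolide, DMSO or nothing, and control cells (SHC) given 100 nM triptolide, DMSO or nothing. All 6 groups spent the 16 h of treatment in medium with 1% serum, after seeding in 10% serum, and the DMSO label also carries 100 nM. The knockdown sequence, and whether each line is a clone or a pool, are not given in the sources used here. ADAR encodes the enzyme that converts adenosine to inosine in double-stranded RNA. Triptolide is a plant compound that binds the XPB helicase of the transcription factor TFIIH and blocks initiation by RNA polymerase II.

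Before a cell can copy its DNA, the origin recognition complex, CDC6 and CDT1 load rings of MCM proteins onto origins. In S phase, CDC45 and the GINS complex turn those rings into active helicases, DNA polymerase alpha and primase lay down primers, and RFC loads the PCNA clamp on which polymerases delta and epsilon depend. Many of these genes are transcribed mainly around the entry into S phase, under the E2F family of transcription factors, and together they are a textbook signature of proliferating cells.

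E2F sites are commonly written as the octamers TTTCCCGC, TTTCGCGC, TTTGCCGC and TTTGGCGC. These were searched on both strands from 250 bases before each gene's start to 50 bases after it, in RefSeq promoters of build GRCh38.p14. A promoter was listed for 43 of the 50 genes, and 19 of those 43 (44.2%) held at least 1 octamer. The same search found one in 1164 of 35116 promoters of that table (3.31%) and in 653 of the 13044 promoters of tested genes (5.01%). Overlapping matches to different octamers, as in the 4 matches of MCM6, were each counted, and a match is a description of letters and not of binding. The stretches below, from 100 bases before the start to 30 bases from it, come from 3 genes with an octamer that fell strongly under triptolide. They run 5′ to 3′ on the plus strand, with the octamer in capitals.
GINS3, chr16:58392371-58392500: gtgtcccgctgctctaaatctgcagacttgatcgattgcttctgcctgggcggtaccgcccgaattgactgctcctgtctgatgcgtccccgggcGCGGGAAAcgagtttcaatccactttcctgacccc
POLA2, chr11:65261862-65261991: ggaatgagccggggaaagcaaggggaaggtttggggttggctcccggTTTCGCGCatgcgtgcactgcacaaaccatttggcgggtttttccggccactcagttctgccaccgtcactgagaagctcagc
DTL, chr1:212035648-212035777: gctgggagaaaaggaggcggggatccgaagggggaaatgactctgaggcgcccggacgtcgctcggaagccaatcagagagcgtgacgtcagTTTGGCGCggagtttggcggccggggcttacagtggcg
The match begins 5 bases before the start in GINS3, where it reads as the reverse strand of TTTCCCGC, 53 bases before it in POLA2 and 8 bases before it in DTL.

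The libraries held 26709657 to 35674502 counts in genes. Mitochondrial ribosomal RNA took 42.7 to 55.2% of them in triptolide libraries and 20.2 to 37.1% in DMSO and untreated libraries. ADAR mRNA in the knockdown library stood at 31.2 to 44.5% of the control library of the same number under triptolide and at 51.0 to 77.5% without it, lower in 9 of 9 pairs. All 10 luminal epithelial markers reached 1 CPM (counts per 1e6 counts), with the keratin gene KRT8 at 2730 CPM, while KRT5, KRT14, PTPRC, CD3E, COL1A2 and LUM stayed below 0.1 CPM. Of the other marker lists, 2 of 5 basal, 2 of 6 leukocyte, 1 of 5 stromal and 1 of 3 endothelial genes reached 1 CPM. The summed level of the 5 basal markers was 7.62 to 9.64 CPM in triptolide-treated knockdown cells and 3.41 to 4.2 CPM in DMSO-treated knockdown cells, and that of the 6 leukocyte markers 7.98 to 14 CPM and 3.97 to 6.67 CPM. The part of these in the results below was not tested.

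Without triptolide, the replication genes spanned a wide range of levels. Per kilobase of annotated exon, PCNA, the clamp itself, stood highest of the 50 at 162 ± 22.7 CPM per kb (SD, n = 12 DMSO and untreated libraries). MCM3 (87.8 ± 13.1), FEN1 (82.1 ± 17), MCM2 (71.2 ± 12.4) and GINS2 (70.6 ± 16.4) followed, and among these 4 each lay within 1 SD of the next. At the other end stood PRIM2 at 3.16 ± 0.634, CLSPN at 3.12 ± 0.812 and GINS3 at 2.66 ± 0.422 CPM per kb. Annotated exons span all transcripts of a gene and can far exceed a single mRNA. For POLD2 they held 8005 bases, against 1609 in its canonical mRNA, and for GINS3 5108 against 2200. The order of levels therefore depends on the length used, and levels by mRNA length were not computed. The lowest count of any of these genes in one library was 44, for GINS3.

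Under triptolide some replication genes fell and others rose relative to the typical gene. In knockdown cells 22 of the 50 genes (44%) fell and 11 (22.0%) rose relative to DMSO, by edgeR's quasi-likelihood test at an adjusted p under 0.05. In control cells 22 (44%) fell and 8 (16.0%) rose. Among all 21285 genes tested, 28.1% fell and 29.1% rose in knockdown cells, and 26.0% fell and 26.1% rose in control cells. The median change of the 50 genes was -0.22 on the log2 scale in knockdown cells and -0.31 in control cells, beside 0.05 and 0.03 for all genes. The changes ran between -2.52 and 0.71 in knockdown cells and between -2.21 and 0.77 in control cells. The same 21 genes fell in both lines and the same 8 rose in both. Among all genes tested, 23.0% fell in both lines and 22.8% rose in both. None of the 50 was called in opposite directions, as were 2 of the 21285 genes. Of the 50, 5 (10.0%) were called in 1 line only and 16 (32.0%) in neither, against 17.7% and 36.5% of all genes tested. With no replicate block in the fit, 16 fell and 3 rose in knockdown cells, and 13 fell and 3 rose in control cells. Fewer higher calls were also made with some libraries left out: 7 in knockdown cells without their triptolide replicate 1, and 5 in control cells without their DMSO replicate 1 or 3. Without all libraries numbered 3, there were 7 and 3, and without those numbered 2 there were 7 in knockdown cells.

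**Figure D1:**
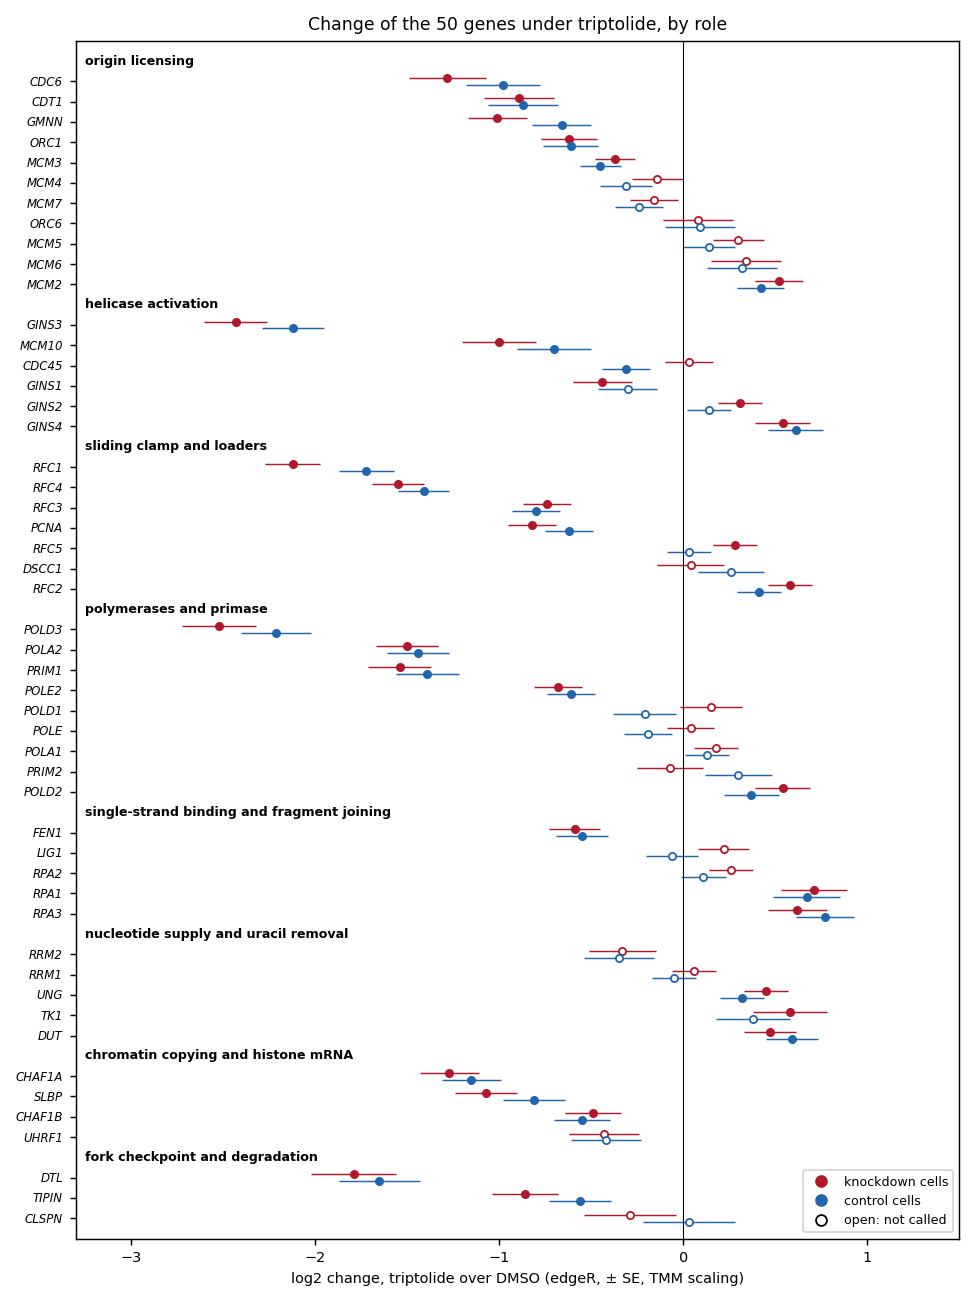
Log2 change under triptolide relative to DMSO (horizontal axis, ± SE, 3 libraries per group) for each of the 50 genes, grouped by role, in knockdown cells (red, upper point) and control cells (blue, lower point). Filled points passed an adjusted p of 0.05. GINS3, POLD3 and RFC1 lie farthest to the left in both lines, and RPA1 and RPA3 farthest to the right in both, with TMM scaling.

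All of these changes are relative to the scaling by TMM, which sets the typical gene near 0. When libraries were scaled by their total counts instead, the median of all genes moved to -0.66 in knockdown cells and -0.60 in control cells, 40 and 38 of the 50 genes were called lower, and none was called higher. When they were scaled to the 13 mitochondrial mRNAs, the medians were -1.41 and -0.84, with 50 and 33 of the 50 genes lower and none higher. A gene that rose below therefore rose relative to the typical mRNA, and the statement holds for no absolute amount. Since bulk RNA was measured, fewer cells in S phase and less of these mRNAs per cell cannot be told apart.

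The roles below hold 3 to 11 genes each, and their counts were not tested. Among all genes tested, 28.1% fell and 29.1% rose in knockdown cells, and 26.0% fell and 26.1% rose in control cells. Of the 11 licensing genes, 5 fell and 1 rose in each line, and the 5 included the loading factors CDC6 and CDT1 and the inhibitor geminin. CDC6, the ATPase that helps load the MCM ring, stood at 33.6, 47.4 and 51.6 CPM in triptolide-treated knockdown cells (replicates 1, 2 and 3), against 103, 80.8 and 140 CPM in DMSO-treated ones. In control cells it stood at 44.9, 70.9 and 46.9 CPM under triptolide, against 105, 97.9 and 124 CPM under DMSO. Every triptolide library was thus below every DMSO library of its line. The log2 change was -1.28 ± 0.21 (SE; adjusted p = 2.66e-05) in knockdown cells and -0.98 ± 0.20 (adjusted p = 0.000465) in control cells.

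CDT1, the partner of CDC6 in loading, reached 31.1, 35.2 and 41.1 CPM under triptolide in knockdown cells, against 54.5, 58.0 and 88.5 CPM under DMSO. Its control-cell values were 42.7, 29.0 and 51.8 CPM under triptolide and 78.8, 63.0 and 81.3 CPM under DMSO. Neither line had overlapping groups, and the changes were -0.89 ± 0.19 (adjusted p = 0.000508) and -0.87 ± 0.19 (adjusted p = 0.00066). GMNN, which encodes geminin, the protein that binds CDT1 and blocks relicensing, fell by 1.01 ± 0.16 in knockdown cells and by 0.66 ± 0.16 in control cells. ORC1, the largest subunit of the origin recognition complex, fell by 0.62 ± 0.15 and by 0.61 ± 0.15 in these lines.

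The MCM2 to MCM7 genes, whose products form a single ring, were called in both directions with TMM scaling. With TMM in edgeR, MCM2 was the one licensing gene called higher, a direction that turned to -0.19 in knockdown cells and -0.21 in control cells when scaled to library totals. It stood at 492, 412 and 518 CPM in triptolide-treated knockdown cells, against 298, 283 and 416 CPM in DMSO-treated knockdown cells, so that the groups touched, while the triptolide library was higher in each replicate number. In control cells it stood at 484, 364 and 535 CPM under triptolide, against 351, 304 and 369 CPM under DMSO, again with overlap. The change was 0.52 ± 0.13 (adjusted p = 0.00227) in knockdown cells and 0.42 ± 0.13 (adjusted p = 0.0115) in control cells. MCM3 fell, by 0.37 ± 0.11 in knockdown cells and by 0.45 ± 0.11 in control cells. MCM4, MCM5, MCM6 and MCM7 were not called in either line in the same fit, with changes between -0.31 and 0.34. In knockdown cells MCM5 was called higher by DESeq2, with RLE size factors and without DMSO replicate 3, and MCM6 in a fit of only the libraries compared. In control cells MCM4 was called lower with no low-count filter and without triptolide replicate 2, DMSO replicate 3 or the libraries numbered 2. MCM7 was called lower there with no low-count filter and without DMSO replicate 3. ORC6 stood at 0.08 in knockdown and 0.09 in control cells and was not called. Without the replicate block in the fit, MCM2, MCM3 and ORC1 lost their calls in both lines (adjusted p between 0.0727 and 0.223), and MCM2 lost its call in control cells without DMSO replicate 1 or 3 (highest adjusted p with a library or number left out, 0.121).

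In the group that activates the helicase, the subunit genes of GINS were called in both directions with TMM scaling. GINS3 showed one of the deepest falls of the 50. Its levels were 1.98, 2.43 and 3.43 CPM under triptolide in knockdown cells, against 14.9, 11.7 and 15.4 CPM under DMSO. The control-cell levels were 2.71, 2.95 and 3.91 CPM under triptolide and 14.1, 11.5 and 16.1 CPM under DMSO. The triptolide libraries of both lines lay far below all DMSO libraries. The change was -2.43 ± 0.17 (adjusted p = 8.26e-10) in knockdown cells and -2.12 ± 0.17 (adjusted p = 6.47e-09) in control cells.

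GINS4 rose in the same cells (its change was -0.17 in knockdown and -0.03 in control cells when scaled to library totals). It reached 37, 33.2 and 39.2 CPM under triptolide in knockdown cells, against 26.5, 19.4 and 30.8 CPM under DMSO. In control cells the values were 35.6, 36.2 and 43.7 CPM under triptolide and 25.3, 20.5 and 31.1 CPM under DMSO. The groups did not overlap in either line, and the changes were 0.54 ± 0.15 (adjusted p = 0.00364) and 0.61 ± 0.15 (adjusted p = 0.00155), a call that the fit without the replicate block did not make (adjusted p = 0.134 and 0.0974).

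GINS1 and GINS2 were called in knockdown cells only, at -0.44 ± 0.16 (adjusted p = 0.0261) and 0.31 ± 0.12 (adjusted p = 0.0377), and measured -0.30 ± 0.16 and 0.14 ± 0.12 in control cells. In control cells GINS1 was called lower with no low-count filter and without triptolide replicate 2. CDC45, the third component of the active helicase, was called in control cells only, at -0.31 ± 0.13 (adjusted p = 0.0435), against 0.03 ± 0.13 in knockdown cells. These calls lie near the threshold. In its own line, the GINS1 call was lost without DMSO or triptolide replicate 1, the GINS2 call without DMSO replicate 1, 2 or 3 or triptolide replicate 1 or 2, and the CDC45 call without replicate 1 or 2 of either. The highest adjusted p with a library or number left out was 0.182 for GINS1, 0.358 for GINS2 and 0.322 for CDC45, and without the replicate block the adjusted p was 0.154, 0.45 and 0.275. MCM10, which bridges the helicase and polymerase alpha, fell in both lines, by 1.00 ± 0.20 in knockdown cells and 0.70 ± 0.20 in control cells, where the fit without the block did not call it (adjusted p = 0.0722).

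**Figure D2:**
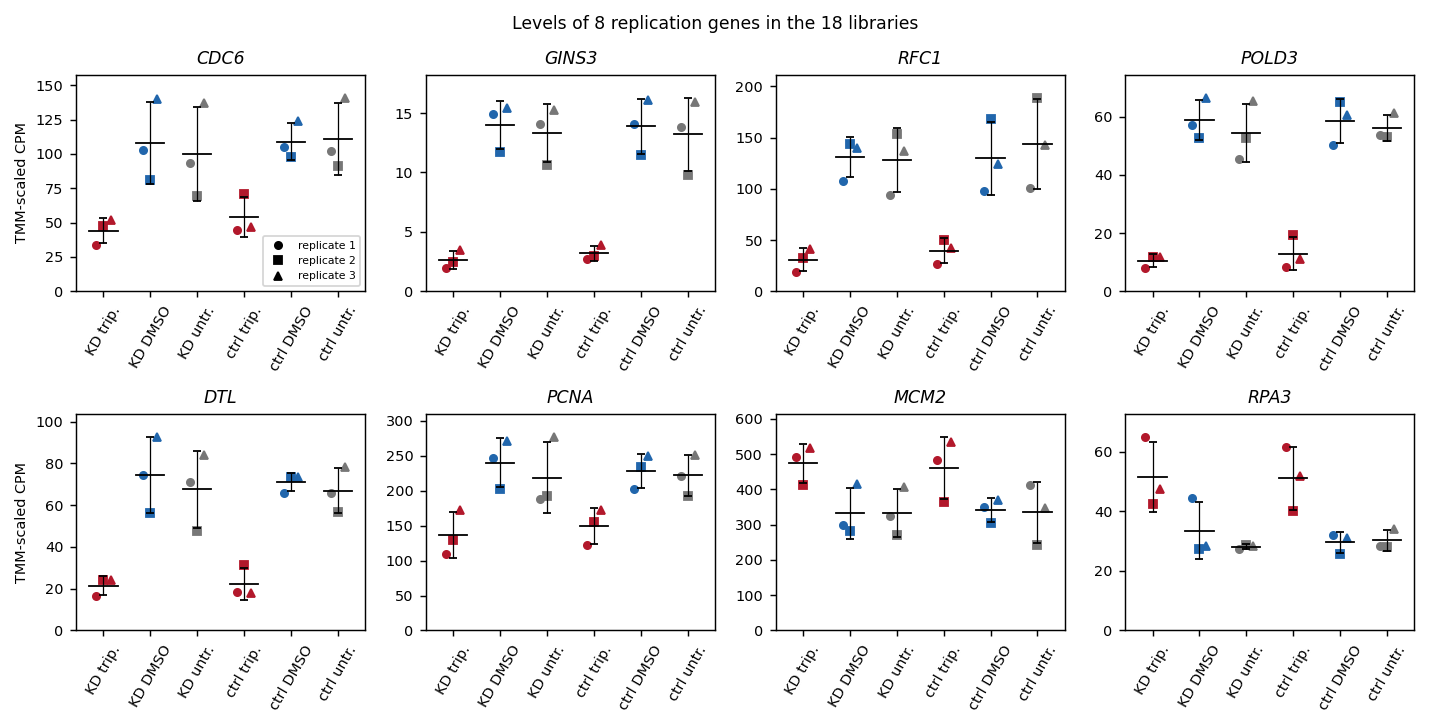
TMM-scaled CPM (vertical axis) of 8 genes in each of the 18 libraries, with triptolide in red, DMSO in blue and untreated in grey, knockdown groups left of control groups. Symbols mark the replicate number, bars the mean ± SD of 3 libraries. For GINS3, RFC1, POLD3, DTL and PCNA, all 6 triptolide libraries lie below all 12 others, while MCM2 and RPA3 stand higher on average under triptolide.

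Among the clamp and its loaders, 4 of 7 genes fell in each line, 2 rose in knockdown cells and 1 rose in control cells. PCNA stood at 109, 130 and 173 CPM in triptolide-treated knockdown cells, against 247, 202 and 271 CPM under DMSO. The values in control cells were 122, 156 and 172 CPM under triptolide, against 202, 234 and 250 CPM under DMSO. Both lines showed groups that did not overlap, with changes of -0.82 ± 0.13 (adjusted p = 3e-05) and -0.62 ± 0.13 (adjusted p = 0.000624).

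RFC1, the large subunit of the clamp loader, measured 19.1, 32.6 and 40.9 CPM under triptolide in knockdown cells, against 108, 144 and 140 CPM under DMSO. Control cells gave 26.8, 50.2 and 42.2 CPM under triptolide and 97.5, 168 and 124 CPM under DMSO. The change of -2.12 ± 0.15 in knockdown cells (adjusted p = 6.27e-10) and of -1.72 ± 0.15 in control cells (adjusted p = 1.22e-08) was larger than the spread between replicates. RFC4, a small subunit, had 35.1, 36.1 and 35.3 CPM under triptolide in knockdown cells, against 108, 94.8 and 108 CPM under DMSO. Its control-cell values were 35.9, 45.4 and 37.8 CPM under triptolide and 92.9, 111 and 114 CPM under DMSO, and it fell by 1.55 ± 0.14 and by 1.41 ± 0.14 in the lines. RFC3, another small subunit, fell by 0.74 ± 0.13 in knockdown cells and by 0.80 ± 0.13 in control cells.

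RFC2, a small subunit of the same complex, rose with TMM scaling, with -0.13 in knockdown and -0.21 in control cells when scaled to library totals. Its levels were 107, 105 and 132 CPM in triptolide-treated knockdown cells, against 71.6, 66.3 and 93.2 CPM under DMSO, and 98.7, 90.6 and 114 CPM in triptolide-treated control cells, against 70.5, 74.0 and 82.8 CPM under DMSO. No triptolide library overlapped the DMSO libraries, and the changes were 0.58 ± 0.12 (adjusted p = 0.000276) and 0.41 ± 0.12 (adjusted p = 0.0056; 0.113 without the replicate block). RFC5 was called only in knockdown cells, at 0.28 ± 0.12 (adjusted p = 0.0475), and measured 0.03 ± 0.12 in control cells. That call was lost with any single DMSO or triptolide library of knockdown cells left out (highest adjusted p = 0.232) and without the replicate block (adjusted p = 0.212). DSCC1, part of an alternative loader, was not called, at 0.04 and 0.26.

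Of the 9 polymerase and primase genes, 4 fell and 1 rose in each line. POLD3, an accessory subunit of polymerase delta, had a fall that, with that of GINS3, was the deepest of the 50 in both lines, the 2 differing by less than their SE. It stood at 7.97, 11.8 and 11.6 CPM under triptolide in knockdown cells, against 57.2, 52.8 and 66.5 CPM under DMSO. In control cells the values were 8.38, 19.3 and 11 CPM under triptolide, against 50.2, 65.1 and 60.6 CPM under DMSO. The changes were -2.52 ± 0.20 (adjusted p = 2.55e-09) and -2.21 ± 0.19 (adjusted p = 1.9e-08). POLD2, another subunit of the same polymerase, rose to 244, 223 and 307 CPM under triptolide in knockdown cells, against 152, 176 and 200 CPM under DMSO, without overlap. In control cells POLD2 had 235, 178 and 334 CPM under triptolide and 201, 175 and 188 CPM under DMSO, with overlap. Its change was 0.54 ± 0.15 (adjusted p = 0.00446) in knockdown cells and 0.37 ± 0.15 (adjusted p = 0.0428) in control cells, and -0.17 and -0.26 when scaled to library totals. The control-cell call was lost without DMSO replicate 1, 2 or 3 or without triptolide replicate 1 or 3 (highest adjusted p = 0.636), and the fit without the replicate block called neither line (adjusted p = 0.0565 and 0.168).

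POLA2, the regulatory subunit of polymerase alpha, measured 25.6, 20.9 and 41.3 CPM in triptolide-treated knockdown cells, against 78.6, 72.5 and 91.8 CPM under DMSO. Control cells gave 26.7, 26.6 and 41.0 CPM under triptolide and 73.4, 85.1 and 91.3 CPM under DMSO. The change was -1.5 ± 0.17 in knockdown cells and -1.44 ± 0.17 in control cells, with all triptolide libraries below all DMSO libraries. PRIM1, the catalytic subunit of primase, fell by 1.54 ± 0.17 in knockdown cells and by 1.39 ± 0.17 in control cells, and POLE2, a subunit of polymerase epsilon, by 0.68 ± 0.13 and by 0.61 ± 0.13. The POLE2 calls were lost without the replicate block (adjusted p = 0.11 and 0.156). The catalytic subunits POLA1, POLD1 and POLE and the large primase subunit PRIM2 were not called, with changes between -0.21 and 0.30.

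Subunits of one complex can be compared within a library, where scaling cancels out. The pairs were picked after their values were seen and carry no test. The ratio of RFC1 to RFC2 counts was 0.179 to 0.554 in the 6 triptolide libraries, against 1.38 to 2.95 in the 12 DMSO and untreated libraries. POLD3 over POLD2 was 0.0327 to 0.108 under triptolide and 0.242 to 0.376 without it. GINS3 over GINS4 was 0.0535 to 0.0895 under triptolide and 0.498 to 0.671 without it, and PRIM1 over PRIM2 was 0.969 to 2.52 and 2.88 to 6.02. In none of the 4 ratios did the triptolide libraries overlap the others, but the choice of pairs by their values made that likely. The ratios describe unequal change of the subunits in these 4 pairs, and not which of them changed in amount. Other subunit pairs were not counted.

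**Figure D3:**
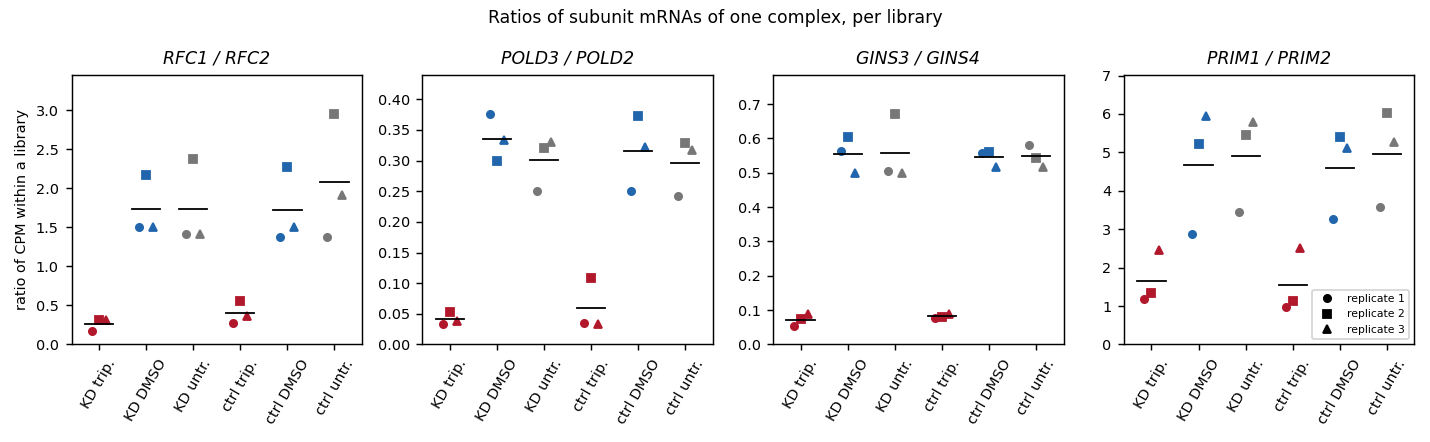
Ratio of CPM of 2 subunits of one complex (vertical axis) in each of the 18 libraries, with triptolide in red, DMSO in blue and untreated in grey, knockdown left of control. Symbols mark the replicate number and lines the group mean. In each panel the 6 triptolide libraries lie below the 12 others, as for GINS3 over GINS4, at most 0.0895 against at least 0.498.

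Of the 5 genes for single-strand binding and fragment joining, 1 fell and 2 rose in each line with TMM scaling. Scaled to mitochondrial mRNAs, RPA3 and RPA1 turned to -0.83 and -0.75 in knockdown cells and to -0.11 and -0.20 in control cells. RPA3, the small subunit of the protein that coats single-stranded DNA, stood at 64.9, 42.4 and 47.4 CPM in triptolide-treated knockdown cells, against 44.6, 27.5 and 28.5 CPM under DMSO, with overlap. Control cells had 61.4, 40 and 51.7 CPM under triptolide, against 32.2, 25.5 and 31.1 CPM under DMSO, without overlap. The changes were 0.62 ± 0.16 (adjusted p = 0.00202) and 0.77 ± 0.16 (adjusted p = 0.000356).

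RPA1, its large subunit, reached 62.6, 66.6 and 80.0 CPM in triptolide-treated knockdown cells, against 42.0, 36.3 and 50 CPM under DMSO, and 51.2, 57.5 and 77.5 CPM in triptolide-treated control cells, against 35.6, 36.7 and 43.8 CPM under DMSO. The groups did not overlap, and the changes were 0.71 ± 0.18 (adjusted p = 0.00183) and 0.67 ± 0.18 (adjusted p = 0.00336). FEN1, the nuclease that trims Okazaki fragment flaps, had 128, 109 and 134 CPM under triptolide in knockdown cells, against 223, 148 and 194 CPM under DMSO. Control cells measured 139, 110 and 133 CPM under triptolide, against 221, 165 and 174 CPM under DMSO, and FEN1 fell by 0.59 ± 0.14 and by 0.55 ± 0.14 in the lines (adjusted p = 0.064 and 0.102 without the replicate block). RPA2 and LIG1, the ligase that seals the fragments, were not called, with changes between -0.06 and 0.26. In knockdown cells RPA2 was called higher by DESeq2 and with RLE size factors.

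In the main fit (TMM scaling, low-count filter and replicate block), none of the 5 genes for nucleotide supply and uracil removal was called lower. Among all genes tested, 28.1% were lower in knockdown cells and 26.0% in control cells. Whether these 5 genes differ from that share was not tested. Scaled to library totals, the changes of DUT and UNG, called higher below, were -0.25 and -0.25 in knockdown cells and -0.03 and -0.31 in control cells. DUT, the dUTPase that keeps uracil out of DNA, stood at 132, 105 and 92.9 CPM in triptolide-treated knockdown cells, against 103, 68.8 and 67.9 CPM under DMSO. Its levels in control cells were 125, 93.0 and 92.6 CPM under triptolide, against 71.4, 72.7 and 61.1 CPM under DMSO. The groups overlapped in knockdown cells and not in control cells, and the changes were 0.47 ± 0.14 (adjusted p = 0.00822) and 0.59 ± 0.14 (adjusted p = 0.00168). The knockdown-cell call was lost without triptolide replicate 1, DMSO replicate 2 or DMSO replicate 3 (highest adjusted p = 0.0957) and without the replicate block (adjusted p = 0.075). UNG, the glycosylase that removes uracil, rose to 196, 180 and 202 CPM in triptolide-treated knockdown cells, against 155, 113 and 159 CPM under DMSO. Its control-cell values were 177, 148 and 156 CPM under triptolide and 145, 116 and 126 CPM under DMSO.

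The UNG changes were 0.45 ± 0.12 (adjusted p = 0.00395) and 0.32 ± 0.12 (adjusted p = 0.0354), neither called without the replicate block (adjusted p = 0.109 and 0.262). The control-cell call was also lost without DMSO replicate 1 or 3 or triptolide replicate 1 or 2 (highest adjusted p = 0.171). TK1, the thymidine salvage kinase, was called in knockdown cells only, at 0.58 ± 0.20 (adjusted p = 0.0172), and measured 0.38 ± 0.20 in control cells. There its levels were 130, 40.2 and 114 CPM under triptolide and 77.7, 57.7 and 64.6 CPM under DMSO, so that replicate 2 ran against the others. TK1 was called higher in control cells without DMSO replicate 2, triptolide replicate 2 or the libraries numbered 2. The knockdown-cell call was lost without DMSO replicate 1 or 3 or triptolide replicate 1 (highest adjusted p = 0.194) and without the replicate block (adjusted p = 0.191). RRM1 and RRM2, the subunits of ribonucleotide reductase, were not called in the main fit, at 0.06 and -0.33 in knockdown cells and -0.05 and -0.35 in control cells. RRM2 was called lower in both lines with no low-count filter and without the libraries numbered 3. It was also called lower in knockdown cells without triptolide replicate 3 and in control cells without DMSO replicate 3.

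Of the 4 genes for copying chromatin and for histone mRNA, 3 fell in each line. CHAF1A, the large subunit of the chromatin assembly factor that PCNA recruits, stood at 22.4, 19.2 and 22.7 CPM in triptolide-treated knockdown cells, against 62.2, 37.7 and 57.4 CPM under DMSO. Control cells gave 23.0, 22.8 and 26.9 CPM under triptolide and 62.4, 47.5 and 52.7 CPM under DMSO. No groups overlapped, and the changes were -1.27 ± 0.16 (adjusted p = 1.05e-06) and -1.15 ± 0.16 (adjusted p = 4.26e-06). SLBP, which binds the stem-loop of histone mRNAs, had 16.1, 38.4 and 30.6 CPM under triptolide in knockdown cells, against 45.2, 56.0 and 72.5 CPM under DMSO. The control line gave 21.0, 36.3 and 30.3 CPM under triptolide, against 36.9, 59.9 and 57.3 CPM under DMSO.

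SLBP fell by 1.07 ± 0.17 in knockdown cells and by 0.81 ± 0.17 in control cells, where the fit without the replicate block did not call it (adjusted p = 0.0655). CHAF1B, the middle subunit of the assembly factor, fell by 0.49 ± 0.15 and by 0.55 ± 0.15, also not called without the block (adjusted p = 0.0686 and 0.0539). UHRF1, which brings the maintenance DNA methyltransferase to new DNA, measured -0.43 ± 0.19 and -0.42 ± 0.19 and was not called in the main fit (adjusted p = 0.057 and 0.0709). It was called lower in both lines with no low-count filter, in fits of only the libraries compared and without the libraries numbered 2. The same call came without triptolide replicate 2 of either line, DMSO replicate 2 in knockdown cells or DMSO replicate 3 in control cells.

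At the fork, DTL and TIPIN fell in both lines, 2 of the 3 genes of that group. DTL, the substrate receptor of the ubiquitin ligase that destroys CDT1 on loaded PCNA, stood at 16.3, 24.2 and 24.1 CPM in triptolide-treated knockdown cells, against 74.3, 56.4 and 92.6 CPM under DMSO. Its control-cell values were 18.2, 31.3 and 17.8 CPM under triptolide, against 66.0, 73.3 and 73.7 CPM under DMSO. The triptolide libraries were all below the DMSO libraries, and the changes were -1.79 ± 0.23 (adjusted p = 1.44e-06) and -1.65 ± 0.22 (adjusted p = 4.91e-06). TIPIN, which stabilises stalled forks with TIMELESS, had 12.5, 12 and 14.5 CPM under triptolide in knockdown cells, against 25.4, 16.2 and 31.0 CPM under DMSO. Control cells gave 14.1, 15.7 and 15.2 CPM under triptolide, against 22.8, 18.4 and 26.9 CPM under DMSO. TIPIN fell by 0.86 ± 0.18 in knockdown cells and by 0.56 ± 0.17 in control cells, a call lost there without triptolide replicate 3 (highest adjusted p with a library or number left out, 0.0992) and without the replicate block (adjusted p = 0.115). CLSPN, the claspin checkpoint adaptor, measured -0.29 ± 0.25 and 0.03 ± 0.25 and was not called in the main fit. It was called lower in both lines without the libraries numbered 2, and in control cells without triptolide replicate 2.

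The other genes of the pathway, 60 that are not on the list of 50 (further licensing, polymerase, repair-linked and S phase genes), also moved both ways with TMM scaling. In knockdown cells 34 of them fell and 7 rose, and in control cells 29 fell and 8 rose, with 29 (48.3%) lower in both lines and 6 (10%) higher in both. The shares of all genes tested were 28.1% lower and 29.1% higher in knockdown cells, 26.0% and 26.1% in control cells, and 23.0% and 22.8% in both lines. TOPBP1, which activates the checkpoint kinase ATR and takes part in initiation, changed by -1.84 ± 0.14 in knockdown cells and -1.75 ± 0.14 in control cells. ORC2 changed by -1.59 ± 0.14 and -1.71 ± 0.14, MCMBP, which binds MCM proteins, by -1.91 ± 0.14 and -1.57 ± 0.14, and CDC7, a kinase that fires origins, by -1.34 ± 0.14 and -1.30 ± 0.15. In the other direction, ASF1B, a histone chaperone, changed by 1.29 ± 0.13 and 1.39 ± 0.14, more than any of the 50 genes rose. POLE4, a small subunit of polymerase epsilon, changed by 0.67 ± 0.14 and 0.63 ± 0.14, and CDK2, the kinase of S phase entry, by 0.47 ± 0.11 and 0.39 ± 0.11.

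Summed over the 50 genes, the level was 4490 ± 621 CPM in triptolide-treated and 4950 ± 791 CPM in DMSO-treated knockdown cells (SD, n = 3 each). In control cells the sum was 4290 ± 547 CPM under triptolide and 4880 ± 252 CPM under DMSO. Library by library, the triptolide sum was 82.2 to 95.6% of the DMSO sum of the same line and number. These sums are relative to TMM scaling. As a share of all gene counts, the 50 genes took 0.304, 0.31 and 0.407% in triptolide-treated knockdown cells, against 0.644, 0.48 and 0.729% under DMSO. In control cells they took 0.346, 0.259 and 0.348%, against 0.608, 0.486 and 0.587%. Those counts include mitochondrial ribosomal RNA, which took more of the triptolide libraries.

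With TMM scaling, the summed level of the replication genes followed the replicate number in every group. The sum was lowest in replicate 2 in 6 of 6 groups, at 3866 to 4704 CPM, and highest in replicate 3 in 6 of 6, at 4908 to 5774 CPM. As a share of all gene counts, replicate 1 was instead highest in untreated control cells (0.61%, against 0.601% in replicate 3) and DMSO-treated control cells (0.608% against 0.587%). By that share replicate 1 was also lowest in triptolide-treated knockdown cells (0.304%, against 0.31% in replicate 2). Elsewhere the highest and lowest replicates were the same by both measures. In replicate 2, 11 genes had their lowest value in all 6 groups, among them TK1, MCM2, MCM5, MCM7, UHRF1 and UNG. POLA1, RFC1, RRM1 and SLBP instead had their lowest value in replicate 1 in all 6, and POLD1 and TK1 their highest. In replicate 3, 12 genes had their highest value in all 6, among them PCNA, GMNN, ORC1, GINS2 and RFC3. Such counts were not made for all genes tested, so they show no trait particular to the replication genes. Across all genes, deviations from the group means also went with the number, at r between 0.31 and 0.69 for libraries of equal number. What the number stands for (a day, a passage or a culture) is not given in the sources used here. The main fit takes it out as a block, and the calls that this decides are those given above with a value without the block.

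**Figure D4:**
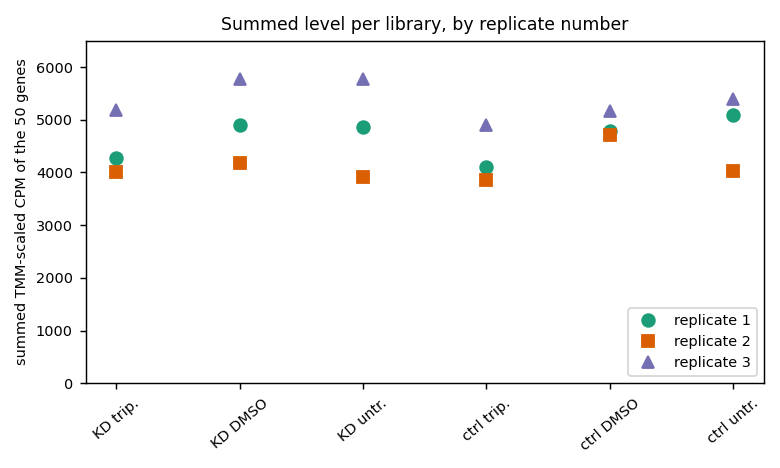
Summed TMM-scaled CPM of the 50 genes (vertical axis) in each of the 18 libraries, by group, with the replicate number as symbol and colour. Replicate 3 lies highest and replicate 2 lowest in all 6 groups.

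The question of whether a lower level of ADAR alters these genes gave no call. The knockdown was partial, with ADAR mRNA at 31.2 to 44.5% of control under triptolide and at 51.0 to 77.5% without it. Between knockdown and control cells 0 of the 50 genes passed the test under triptolide, in DMSO or untreated, where 0.644%, 0.606% and 0.578% of all genes were called. At an unadjusted p under 0.05 there were 3, 1 and 1 of the 50, against 8.32%, 7.16% and 7.13% of all genes. The median change of the 50 genes was 0.01, 0.01 and -0.02 in these comparisons. The smallest unadjusted p of the 3 comparisons belonged to RPA1 in untreated cells, at 79.1, 37.7 and 55.9 CPM in knockdown cells and 38.5, 33.5 and 48.9 CPM in control cells. All 3 pairs were higher in knockdown cells, the groups overlapped, and the change of 0.52 ± 0.18 was not called (adjusted p = 0.337). It ranged between 0.15 and 0.71 with a library or number left out, lowest without untreated knockdown replicate 1. LIG1 and GINS1 came next in untreated cells. In DMSO the smallest belonged to CDC45, at -0.27 ± 0.13 (adjusted p = 0.672), followed by DUT and GMNN. Under triptolide they belonged to RFC1, at -0.36 ± 0.14 (adjusted p = 0.46), UNG at 0.27 ± 0.12 and RFC5 at 0.25 ± 0.12.

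The response to triptolide did not differ detectably between the lines for any of the 50. The interaction called 0 of the 50 genes and 0.0047% of all genes, and 0 of the 50 had an unadjusted p under 0.05, against 3.97% of all genes. Of the 21 genes that fell in both lines, 18 (85.7%) had the larger fall in knockdown cells, against 69.7% of the 4899 genes lower in both lines among all tested. The 3 genes with the smallest p for the interaction were RFC1 at -0.40 ± 0.20 (unadjusted p = 0.062 in edgeR's model), CDC45 at 0.35 ± 0.18 (0.0666) and GMNN at -0.35 ± 0.22. For the 5 genes called in 1 line only, a difference between the lines was therefore not shown.

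No change between DMSO-treated and untreated cells was called for these genes. That comparison called 0 of the 50 and 0% of all genes in both lines. Unadjusted p values under 0.05 numbered 2 of 50 in knockdown cells and 0 of 50 in control cells, against 3.51% and 1.29% of all genes, and DESeq2 called 1 gene and 0 genes of all, none of the 50. Over all settings, calls among all genes numbered 0 to 120 in knockdown cells, with 120 for no low-count filter and 12 for scaling to mitochondrial mRNAs, and 0 in control cells. The 2 genes in knockdown cells were RPA1 at -0.43 ± 0.18 (-0.62 to -0.06 with a library or number left out, nearest 0 without untreated replicate 1) and GINS1 at 0.36 ± 0.16, followed by POLE2 at 0.24 ± 0.13. In control cells RFC5, DUT and LIG1 had the smallest p. Over these 6 comparisons, 0 of 108 fits under the main setting and all alternatives called any of the 50.

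**Figure D5:**
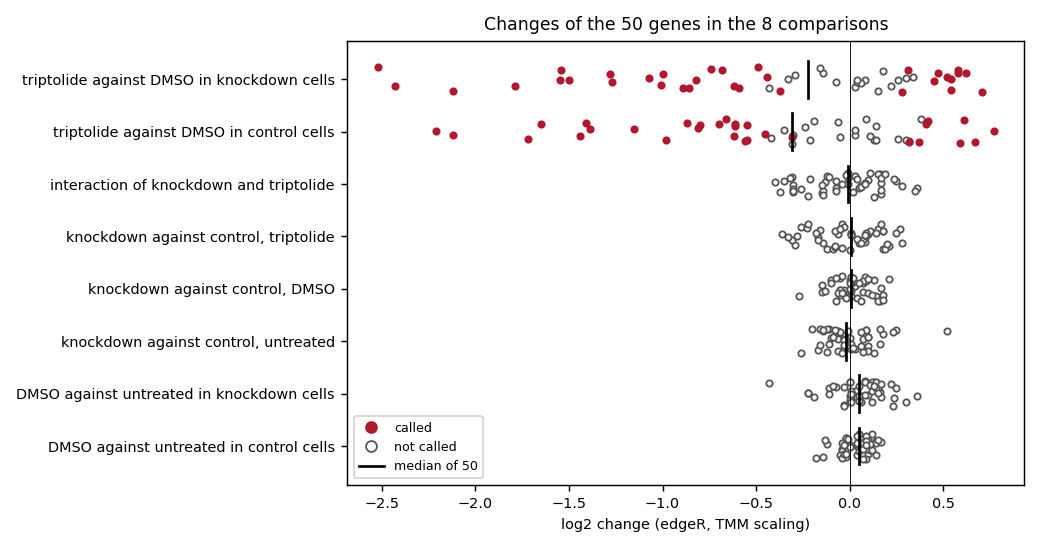
Log2 change (horizontal axis) of each of the 50 genes in the 8 comparisons (rows), with called genes filled in red and the median as a black line. Called genes appear only in the 2 comparisons of triptolide with DMSO, where the changes spread between -2.52 and 0.77.

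Features of the transcripts that the list did not use were set beside the calls, as a description with no test. The 21 genes lower in both lines had a median share of G or C at the third codon position of 50% (30.6 to 82.8%), and the 8 genes higher in both had 61.5% (47.1 to 77.3%). Among all tested protein-coding genes these medians were 52.7% for 4121 genes lower in both and 63.6% for 3365 genes higher in both. The length of the 3′ UTR, by contrast, was 866 and 843 bases in the 21 and the 8 genes, but 1620 and 912 bases in all genes lower and higher. The pentamer ATTTA, found in many short-lived mRNAs, lay in the 3′ UTR of 13 of the 21 (61.9%) and 4 of the 8 (50%), against 80.6% and 63.4% of all such genes. The E2F octamers were found in 9 of 20 promoters of genes lower in both, 1 of 6 of genes higher in both and 9 of 17 of the others.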

How the data were processed

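Raw counts per gene, 1 table per library, were deposited by the authors without normalization. Per the submitters' processing notes, the tools were STAR 2.4.2a, HTSeq 0.6.1, DESeq2 1.4.5 and R 3.1, with build hg19. Whether counting used the strand is not given in the sources used here. Of the 50 genes, 31 overlap another annotated gene (22 on the opposite strand) and 12 have pseudogenes by name, such as DUT, PCNA, RPA2 and RRM2, so their counts may hold or miss reads of those.

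Counts were scaled by TMM and fitted in edgeR 4.0.16 (R 4.3.3) by the quasi-likelihood F test, in 1 fit of 18 libraries with 6 group means and a block for the replicate number, which left 10 residual degrees of freedom. The low-count filter was filterByExpr by group. The 8 comparisons were 2-sided, with Benjamini-Hochberg adjustment over 21285 genes, and an adjusted p under 0.05 was a call. SE is the log2 change divided by the square root of F. CPM are TMM-scaled counts per 1e6 counts, and CPM per kb use exon lengths of GENCODE on GRCh37. The labels name the samples biological replicates and nothing more, so p-values measure the spread between these libraries. In the main fit that is the spread left after the replicate block, estimated over all 6 groups together. No library was a copy of another (chi-square divided by its degrees of freedom was at least 62.0 within a group).

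The pairing comes from the replicate numbers of the labels. Deviations from the group means correlated across genes at r between 0.31 and 0.69 for libraries of equal number (45 pairs) and between -0.52 and 0 for unequal ones (90 pairs), and each of the 18 libraries correlated best with one of its own number. Deviations within a group sum to 0, so values above 0 for equal numbers bring values below 0 for unequal ones. The range for unequal numbers is therefore no separate support for the pairing. Over the 50 genes alone, r for equal numbers ran between -0.1 and 0.9. Alternatives were no block, other scalings, no filter, DESeq2 1.42.0, fewer groups and libraries left out.

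The genes, the roles, the 60 pathway genes, the tests and the naming rule were chosen with earlier results of these data known. By that rule each role gives values per library for up to 2 genes lower and 2 higher, by the smallest p in control cells, and genes called in 1 line only are named. Those of PCNA and the ratios of subunits were added after their values were seen. The 3 promoters belong to the named genes with an octamer and the smallest p, outside chromosomes left out of sequence printing. One pathway gene that the rule names is not reported here.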

Additional observations from a re-analysis of the deposited data

How the results depend on the processing

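The paired fit with the replicate block decided many calls. With no replicate block, 16 genes were called lower and 3 higher in knockdown cells, and 13 lower and 3 higher in control cells, against 22 and 11, and 22 and 8, with the block. All genes called numbered 7589 and 6565 without it, against 12163 and 11089. With no low-count filter 9 genes were higher in knockdown cells and 4 in control cells, while 24 and 27 were lower. Higher calls made up 16.4% and 17.4% of all calls when scaled to library totals and 7.22% and 13.5% when scaled to mitochondrial mRNAs, against 50.9% and 50.1% by TMM; what the scaling misses was not tested. The median of the 50 genes minus that of all genes stayed between -0.31 and -0.18 in knockdown cells and between -0.44 and -0.20 in control cells in all settings run. With 1 library or 1 number left out, genes called higher ranged between 7 and 10 in knockdown cells and between 3 and 8 in control cells, and genes called lower between 19 and 24 and between 18 and 26. Without number 3, RFC2 (adjusted p = 0.0623) and RPA1 (0.0622) were not called in control cells, nor was MCM10 without number 1 or 3 (0.0618 and 0.0898). Other calls lost in this way included CHAF1B in both lines and MCM3 in knockdown cells, without number 1. Without number 2, UNG was not called in knockdown cells (adjusted p = 0.0828).

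Scaled to library totals, 0 genes were higher and 40 lower in knockdown cells, and 0 higher and 38 lower in control cells. These log2 changes then turned negative in knockdown cells: GINS4 -0.17, DUT -0.25, UNG -0.25, MCM2 -0.19, POLD2 -0.17, RPA3 -0.09, RFC2 -0.13, CDC45 -0.68, RFC5 -0.43, GINS2 -0.40 and TK1 -0.14. In control cells they were GINS4 -0.03, DUT -0.03, UNG -0.31, MCM2 -0.21, POLD2 -0.26, RFC2 -0.21, RFC5 -0.60, GINS2 -0.50 and TK1 -0.23.

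Scaled to mitochondrial mRNAs, 0 genes were higher and 50 lower in knockdown cells, and 0 were higher in control cells. The changes were GINS4 -0.93, DUT -1.0, UNG -1.03, MCM2 -0.96, POLD2 -0.92, RPA3 -0.83, RPA1 -0.75, RFC2 -0.90, CDC45 -1.44, RFC5 -1.18, GINS2 -1.17 and TK1 -0.89 in knockdown cells. They were GINS4 -0.25, DUT -0.27, UNG -0.53, MCM2 -0.45, POLD2 -0.55, RPA3 -0.11, RPA1 -0.20, RFC2 -0.44, RFC5 -0.82, GINS2 -0.73 and TK1 -0.51 in control cells. Changes that were not called also turned: CDC45 to -0.27 for the interaction and 0.37 for knockdown against control in DMSO, LIG1 to -0.04 for DMSO against untreated in control cells, and RPA1 to 0.25 for DMSO against untreated in knockdown cells.

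With no low-count filter, RFC5 measured -0.09 in control cells and CDC45 -0.06 in knockdown cells under triptolide. With libraries left out, the RFC5 change ranged between -0.03 and 0.10, that of CDC45 between -0.04 and 0.06, and that of LIG1 for DMSO in control cells between -0.02 and 0.24. None of these was called.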
